A study of Homo sapiens with 6 samples.

Results

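The tubulin isotypes described here are the 10 alpha and beta tubulin genes TUBA1A, TUBA1B, TUBA1C, TUBA4A, TUBB, TUBB2A, TUBB2B, TUBB3, TUBB4B and TUBB6, chosen by name and not by their values. They are 10 of 42656 genes in the count table and 10 of 15679 genes tested, so the filter on low counts removed none of them. Messenger RNA was sequenced from TOV21G, an established cell line derived from an ovarian clear cell carcinoma. In the shMEX3A arm (3 libraries, labelled as MEX3A knockdown) the cells carried the hairpin TRCN230492 against MEX3A, an RNA-binding protein with KH and RING domains. In the shCtrl arm (3 libraries, labelled as wild type) they carried the scrambled hairpin TRC2-Scramble_ASN0003. Lentivirus at a multiplicity of infection of 50 was used in both arms, RNA was taken on day 3, and cells were grown in 15% serum for at most 25 passages. Each arm rests on 1 hairpin, so an effect of the MEX3A knockdown and an effect of this hairpin on other transcripts cannot be told apart.

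Microtubules are polymers of a dimer of alpha and beta tubulin, and each of the 2 chains is made from several genes, the isotypes. The isotypes are nearly alike in the folded body and differ mainly in the acidic tail at the end of the chain, which faces out from the microtubule and receives most of its enzymatic modifications. Cells adjust tubulin mRNA to the free dimer through a ribosome-bound sensor that reads the first residues of the new chain, and they need chaperones to fold and pair the chains.

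The stretches of coding sequence printed here were chosen because they carry the differences between the isotypes that the values refer to. They come from GENCODE 29 transcripts (GRCh38) and run 5′ to 3′. At the start of the coding sequence, the first 12 bases encode the residues read by the autoregulation sensor. The fourth codon is in capitals, a cysteine codon in alpha and an isoleucine codon in beta.
TUBA1B: atgcgtgagTGC
TUBA4A: atgcgtgaaTGC
TUBB: atgagggaaATC
TUBB2B: atgcgtgagATC
TUBB3: atgagggagATC
All 4 alpha genes had the cysteine codon there and all 6 beta genes the isoleucine codon.

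For the beta isotypes, the last 60 coding bases before the stop codon, which encode the acidic tail, are shown with glutamate codons in capitals.
TUBB: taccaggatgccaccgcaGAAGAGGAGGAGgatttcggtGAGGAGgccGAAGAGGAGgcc
TUBB4B: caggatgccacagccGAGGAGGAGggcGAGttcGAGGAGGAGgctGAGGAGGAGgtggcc
TUBB2A: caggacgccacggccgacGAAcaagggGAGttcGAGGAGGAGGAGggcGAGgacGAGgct
TUBB2B: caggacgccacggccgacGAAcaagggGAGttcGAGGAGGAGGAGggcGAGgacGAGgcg
TUBB3: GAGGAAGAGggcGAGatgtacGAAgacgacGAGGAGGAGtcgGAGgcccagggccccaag
TUBB6: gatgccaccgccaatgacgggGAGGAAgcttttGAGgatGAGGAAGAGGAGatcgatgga
These beta tails held 7 glutamate codons in TUBB6 and up to 10 in TUBB4B.

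Proteins translated from these coding sequences were 95.8% to 99.6% identical over the 6 pairs of alpha isotypes and 90.4% to 99.6% over the 15 pairs of beta isotypes, against 39.3% to 41.4% between alpha and beta. Over the last 20 residues the identity of beta pairs ran from 15.0% to 100%, with TUBB3 at 15.0% to each of TUBB, TUBB2A, TUBB2B, TUBB4B and TUBB6. This window was counted back from the end of each chain, and TUBB3 has 450 codons against 444 to 446 in the other beta genes. Its 15.0% thus compares stretches that start at different places and is not a measure of tail divergence alone. The coding sequences were also alike: TUBA1A and TUBA1B shared 97.2% of coding bases, and TUBB2A and TUBB2B shared 98.2%. This bears on the counts, because a read from a shared stretch can be given to either gene or dropped. Of all 100-base windows of the representative transcript, 56.4% in TUBB2A, 46.2% in TUBB2B, 37.2% in TUBA1B, 18.3% in TUBA1A and 11.5% in TUBA1C also occurred in a transcript of another gene. The share was 5.15% or less in TUBB3, TUBB, TUBB4B and TUBA4A and 0.0% in TUBB6. Read length is not given in the sources used here, and for 50-base windows the shares were higher, at 62.7% in TUBA1B, 41.1% in TUBA1A, 18.2% in TUBB, 9.89% in TUBB4B, 8.90% in TUBB3 and 5.25% in TUBA4A. For 150-base windows they were 19.2% in TUBA1B, 6.91% in TUBA1A and at most 2.50% in TUBB, TUBB4B, TUBB3 and TUBA4A, while TUBB2A stayed at 49.4% and TUBB2B at 39.4%. The split of reads within the TUBA1 trio and within the TUBB2 pair is therefore uncertain, and sums over each are given beside the single genes.

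TUBA1B (chromosome 12 from 49127782 to 49131397), TUBA1A (49184796 to 49189324) and TUBA1C (49188736 to 49274603) form a cluster, in which TUBA1C is on the plus strand and the others on the minus strand. TUBA4A spans 219249711 to 219278170 of chromosome 2, minus strand. On chromosome 6, TUBB2A (3153669 to 3157526) and TUBB2B (3224261 to 3231730) are neighbours on the minus strand, and TUBB (30720201 to 30725426) lies far from them on the plus strand. TUBB3 lies on chromosome 16 from 89921392 to 89938761, TUBB4B on chromosome 9 from 137241213 to 137243707 and TUBB6 on chromosome 18 from 12307669 to 12344320, all on the plus strand. Exons of other genes, on either strand, covered 36.6% of the exon bases of TUBA1B, 35.8% of TUBB3, where a readthrough transcript runs on the same strand, 25.0% of TUBA1C, 20.3% of TUBB6, 18.1% of TUBA4A, 16.02% of TUBB, 14.3% of TUBA1A, 7.93% of TUBB2B and 5.87% of TUBB4B. TUBA1A and TUBA1C overlap each other. Whether strand was used in the counting is not given in the sources used here, so reads of such neighbours cannot be told apart.

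The libraries held 34662635 to 48228216 counts. MEX3A itself had 19.6, 21.0 and 22.2 CPM in shMEX3A (counts relative to a library total adjusted by TMM), against 68.8, 70.7 and 67.6 CPM in shCtrl, so it was 3.31-fold lower on average (edgeR adjusted p = 1.52e-28, log2 fold change -1.72). Of the clear cell carcinoma markers, 12 of 13 passed the filter and all 13 were detected. Their summed level was 2141 to 2207 CPM in shMEX3A and 1963 to 2052 CPM in shCtrl. Of the 12 tested, 7 were higher in shMEX3A, 4 were lower and 1 was not called, so similar sums do not mean unchanged markers. No label states that libraries of the same arm are separate cultures, so every p-value here reflects only the spread among them, which may be technical. The edgeR fit pools this spread in part over genes, with 36.6 total degrees of freedom for MEX3A. Its p-values and intervals thus do not rest on the spread of the single gene alone. In bulk RNA, fewer cells of a kind and less RNA per cell cannot be told apart.

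All 10 isotypes differed between the arms at an adjusted p under 0.05, and they moved in both directions. TUBA1A, TUBA1C, TUBA4A, TUBB and TUBB3 were higher in shMEX3A, and TUBA1B, TUBB2A, TUBB2B, TUBB4B and TUBB6 were lower. These 5 rises and 5 falls stand against a background in which 69.7% of all tested genes were called, 34.0% higher and 35.6% lower. The groups did not overlap in any of the 10, against 72.3% of all tested genes. The changes were mostly small. In 8 of the 10 isotypes the log2 fold change was at most 0.27 in size, below the median size of 0.35 over all tested genes, and only TUBA4A passed 2-fold. The rise of TUBB3 was not kept under every processing choice.

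**Figure D1:**
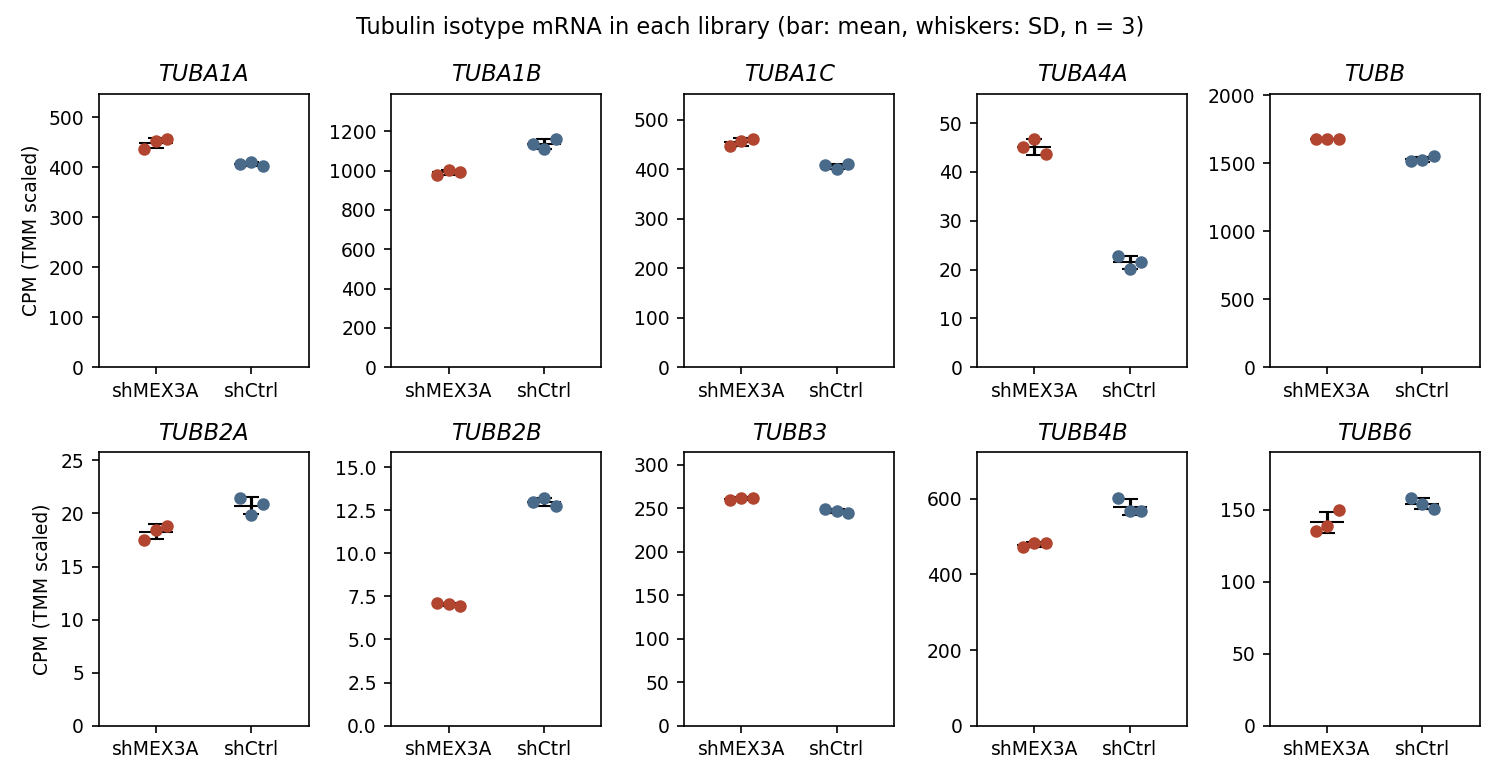
Level of each tubulin isotype in each library, in TMM-scaled CPM on a linear axis that starts at 0 and is set for each gene, with shMEX3A left of shCtrl, points for libraries and bars and whiskers for the mean and SD of 3. TUBA4A stands about 45.1 against 21.5 CPM and TUBB2B about 7.04 against 12.98 CPM, while the abundant isotypes differ little between the arms.

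Among the alpha isotypes, TUBA4A changed most. TUBA4A had 45.0, 46.7 and 43.6 CPM in shMEX3A, against 22.9, 20.1 and 21.5 CPM in shCtrl. Each shMEX3A library lay above every shCtrl library by a wide margin, and the level was 2.10-fold higher (log2 fold change 1.07, 95% interval 0.96 to 1.17, SE 0.051, edgeR adjusted p = 1.21e-20). Of all tested genes, 11.2% changed more than TUBA4A in size. Of its 100-base windows 1.84% were shared, all with the transcript of TUBA4B.

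TUBA1B, the alpha isotype that most dividing cells use as their main supply, was lower. It had 978, 1000.2 and 994 CPM in shMEX3A, against 1134, 1111 and 1160 CPM in shCtrl. The groups lay apart, and the level was 1.15-fold lower (log2 fold change -0.20, 95% interval -0.25 to -0.14, edgeR adjusted p = 2.10e-07). TUBA1A, the isotype best known from developing neurons, moved the other way. It had 437, 453 and 457 CPM in shMEX3A and 407, 411 and 403 CPM in shCtrl (log2 fold change 0.14, SE 0.029, edgeR adjusted p = 5.60e-05). TUBA1C, a broadly expressed isotype, was higher as well, at 446, 458 and 461 CPM in shMEX3A and 408, 399.9 and 410.0 CPM in shCtrl (log2 fold change 0.16, SE 0.029, edgeR adjusted p = 5.03e-06). When the counts of TUBA1A, TUBA1B and TUBA1C were summed before the fit, an alternative chosen after seeing the data, the trio stood at 1895 ± 28.9 CPM in shMEX3A and 1948 ± 25.2 CPM in shCtrl (SD, n = 3 each). The trio as a whole did not pass the test (log2 fold change -0.04, SE 0.029, edgeR adjusted p = 0.223). Summing evens out reads given to the wrong gene of the trio, but not shared reads that were dropped.

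Among the beta isotypes, TUBB2B fell most. TUBB2B, a class II beta tubulin best known from developing brain, had 7.09, 7.05 and 6.96 CPM in shMEX3A, against 12.99, 13.2 and 12.7 CPM in shCtrl. The groups were far apart for their spread, and the level was 1.84-fold lower (log2 fold change -0.88, 95% interval -1.04 to -0.73, SE 0.076, edgeR adjusted p = 5.01e-13). Of all tested genes, 16.3% changed more in size. Its near-identical neighbour TUBB2A had 17.5, 18.5 and 18.9 CPM in shMEX3A, against 21.5, 19.9 and 20.9 CPM in shCtrl (log2 fold change -0.19, SE 0.059, edgeR adjusted p = 0.00506). The pair summed before the fit stood at 25.3 ± 0.647 CPM in shMEX3A and 33.7 ± 0.696 CPM in shCtrl (SD, n = 3 each), and this sum was lower too (log2 fold change -0.42, SE 0.049, edgeR adjusted p = 1.81e-09). The fall of the pair thus does not hang on how reads were split within it.

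TUBB, the class I beta tubulin that most cells express at the highest level, was a little higher. It had 1676 CPM in each shMEX3A library when rounded, against 1512, 1523 and 1548 CPM in shCtrl (log2 fold change 0.13, 95% interval 0.08 to 0.19, SE 0.029, edgeR adjusted p = 8.96e-05). The SD of 0.153 CPM over the shMEX3A libraries is smaller than the 6.46 CPM that counting error alone gives per library, so the closeness of these 3 values is no measure of precision. TUBB4B, a class IV isotype found in most tissues and in cilia, moved the other way. It had 472, 482 and 483 CPM in shMEX3A, against 603, 567 and 567 CPM in shCtrl, so it was 1.21-fold lower (edgeR adjusted p = 3.02e-10, log2 fold change -0.27, SE 0.030).

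TUBB3, the class III beta tubulin used as a neuronal marker and studied in tumours for its link to taxane response, had 259, 262 and 262 CPM in shMEX3A, against 249, 247 and 244 CPM in shCtrl. The difference was the smallest of the 10 (log2 fold change 0.08, 95% interval 0.02 to 0.14, SE 0.029, edgeR adjusted p = 0.0140). It was not called when no low-count filter was used (0.07, edgeR adjusted p = 0.0638) or when shCtrl replicate 3 was left out (0.07, edgeR adjusted p = 0.0679). With offsets for GC content and transcript length its sign turned (-0.03, edgeR adjusted p = 0.329), and the transcript of TUBB3 has the highest GC content of the 10, at 62.6%. The other 9 isotypes kept their direction and their call with these offsets, TUBA4A at 1.00 and TUBB2B at -0.95. TUBB6 moved most among them, to -0.24. TUBB6, the class V isotype, known for weakening microtubule networks when overproduced, had 135, 139 and 149 CPM in shMEX3A, against 158, 154 and 150.4 CPM in shCtrl (log2 fold change -0.13, SE 0.035, edgeR adjusted p = 0.00143). Its highest shMEX3A library and its lowest shCtrl library nearly touched.

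**Figure D2:**
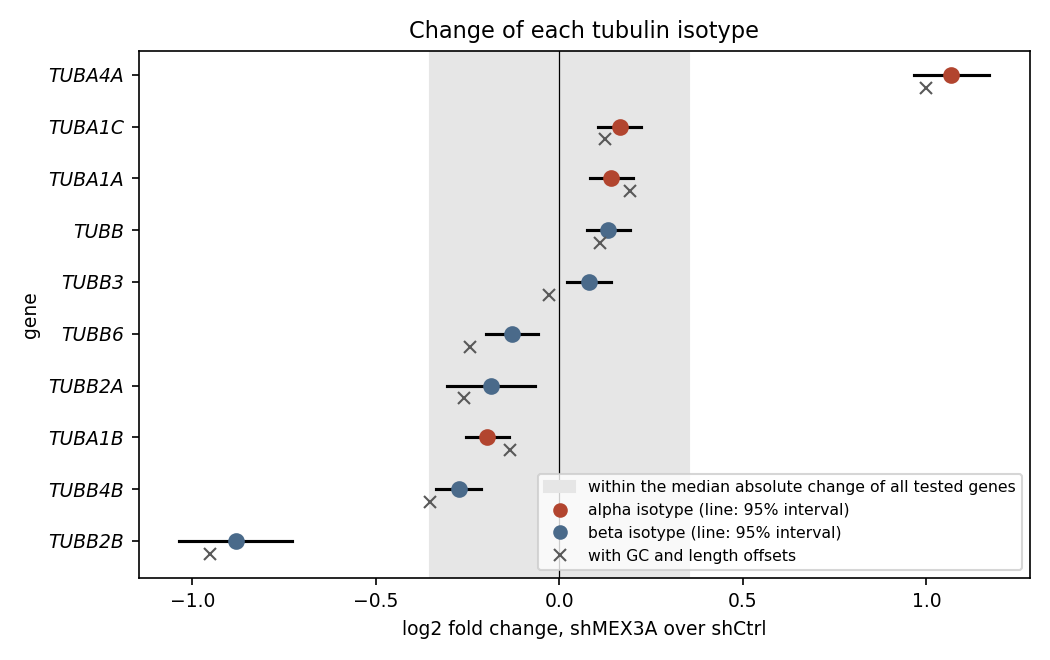
Log2 fold change, shMEX3A over shCtrl, of the 10 isotypes with 95% intervals from the edgeR fit, with crosses for the values with GC and length offsets and a grey band for the median size of change over all tested genes (0.35). TUBA4A (1.07) and TUBB2B (-0.88) stand outside the band and the other 8 within it, and TUBB3 is the isotype whose sign differs between both estimates.

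Dividing CPM by a transcript length allows levels of different genes to be set in order, and the order given first uses the representative transcript. In shMEX3A, TUBB led at 628 ± 0.0571 CPM per kb, followed by TUBA1B at 609 ± 7.02, TUBB4B at 293 ± 3.81, TUBA1A at 234 ± 5.48, TUBA1C at 152 ± 2.54 and TUBB3 at 148 ± 1.02 CPM per kb (SD, n = 3). TUBB6 at 68.3, TUBA4A at 20.9, TUBB2A at 11.5 and TUBB2B at 3.48 CPM per kb closed the order. In shCtrl the order began with TUBA1B at 698 ± 14.9, TUBB at 572 ± 6.94, TUBB4B at 354 ± 12.7, TUBA1A at 212 ± 2.12, TUBB3 at 139.5 and TUBA1C at 135 ± 1.79 CPM per kb, and ended with TUBB6 at 74.7, TUBB2A at 13.01, TUBA4A at 9.95 and TUBB2B at 6.43 CPM per kb. Within each arm the libraries of neighbours in the order did not overlap. With this length TUBB and TUBA1B, TUBA1C and TUBB3, and TUBA4A and TUBB2A stood in opposite order in the arms, but none of these swaps was found with both other lengths tried, which were chosen after seeing the data. With the length of all annotated exons TUBB led TUBA1B in both arms, at 499 against 277 CPM per kb in shMEX3A and 455 against 318 CPM per kb in shCtrl. With windows found in no other gene as the length, TUBA1B led TUBB in both arms, at 1032 against 687 CPM per kb in shMEX3A and 1182 against 626 CPM per kb in shCtrl. TUBA1C stood above TUBB3 in both arms with either of these lengths, and TUBB2A above TUBA4A in both arms with the windows. In every one of the 3 lengths the first 4 places went to TUBB, TUBA1B, TUBB4B and TUBA1A.

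The summed level of the isotypes differed little. The 4 alpha isotypes summed to 999, 1026 and 1023 CPM per kb in shMEX3A, against 1056, 1040 and 1070 CPM per kb in shCtrl, a ratio of means of 0.963 (exact two-sided permutation test, p = 0.10, the smallest that 3 against 3 allows). The groups did not overlap, but this design cannot reach 0.05. The 6 beta isotypes summed to 1142, 1153 and 1159 CPM per kb in shMEX3A and 1173, 1150 and 1157 CPM per kb in shCtrl, with overlapping groups and a ratio of 0.993 (exact two-sided permutation test, p = 0.50). The ratio of alpha to beta was 0.874, 0.890 and 0.883 in shMEX3A and 0.901, 0.905 and 0.925 in shCtrl (exact two-sided permutation test of the log2 ratio, p = 0.10). The alpha difference depended on the gene length used, with a log2 ratio of arm means of -0.05 here, -0.02 when counts were not divided by length and -0.08 with windows found in no other gene as the length, an alternative chosen after seeing the data. All 10 isotypes together took 0.443% ± 0.00228 of all raw counts in shMEX3A and 0.460% ± 0.00448 in shCtrl (SD, n = 3 each). Unlike the sums above, this share was not adjusted by TMM, whose factors were 0.9771 to 0.9855 in shMEX3A and 1.012 to 1.025 in shCtrl. The difference in the share can therefore not be read as a fall in the TMM-scaled level.

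Taken gene by gene, the make-up within each family differed more than its sum. TUBA1B made up 60.2%, 59.9% and 59.7% of the alpha sum in shMEX3A and 66.0%, 65.7% and 66.6% in shCtrl, a difference of -6.15 percentage points. TUBA1A took 23.1% ± 0.232 in shMEX3A and 20.1% ± 0.482 in shCtrl, TUBA1C 14.9% ± 0.0700 in shMEX3A and 12.8% ± 0.0514 in shCtrl, and TUBA4A 2.05% ± 0.0723 in shMEX3A and 0.942% ± 0.0541 in shCtrl (SD, n = 3 each). The share of TUBA4A thus ran at 2.18 times its shCtrl value while staying a small part of the alpha sum. As 1 unit, the TUBA1 trio held 97.9% in shMEX3A and 99.1% in shCtrl. The ratio of these shares, 0.989, had to lie near 1 because the trio is nearly all of the alpha sum, and it only mirrors the share of TUBA4A. It therefore says nothing about shifts within the trio. The shifts among TUBA1A, TUBA1B and TUBA1C rest on a split of reads that is uncertain, because of the shared windows given above.

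In the beta sum the largest shifts were between the 2 most abundant isotypes. TUBB made up 55.0%, 54.5% and 54.2% in shMEX3A and 48.3%, 49.6% and 50.1% in shCtrl, a difference of 5.18 percentage points. TUBB4B made up 25.2%, 25.6% and 25.5% in shMEX3A and 31.4%, 30.1% and 30.0% in shCtrl, a difference of -5.09 percentage points. These 2 proteins are 97.5% identical over their length and 76.2% over the last 20 residues. TUBB3 held 12.8% ± 0.0351 in shMEX3A and 12.03% ± 0.102 in shCtrl, TUBB6 5.93% ± 0.279 in shMEX3A and 6.44% ± 0.126 in shCtrl, and the TUBB2 pair as 1 unit 1.30% in shMEX3A and 1.68% in shCtrl (SD, n = 3 each). The difference of TUBB3, 0.790 percentage points, was 0.400 when counts were not divided by length and 0.447 with the length of all annotated exons. With windows found in no other gene as the length, TUBB2A differed by -0.271 percentage points in place of -0.127 and TUBB2B by -0.440 in place of -0.252. For each of the 10 shares the groups did not overlap, and each had the smallest p the design allows (exact two-sided permutation test, p = 0.10, also after Benjamini-Hochberg adjustment over the 10).

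**Figure D3:**
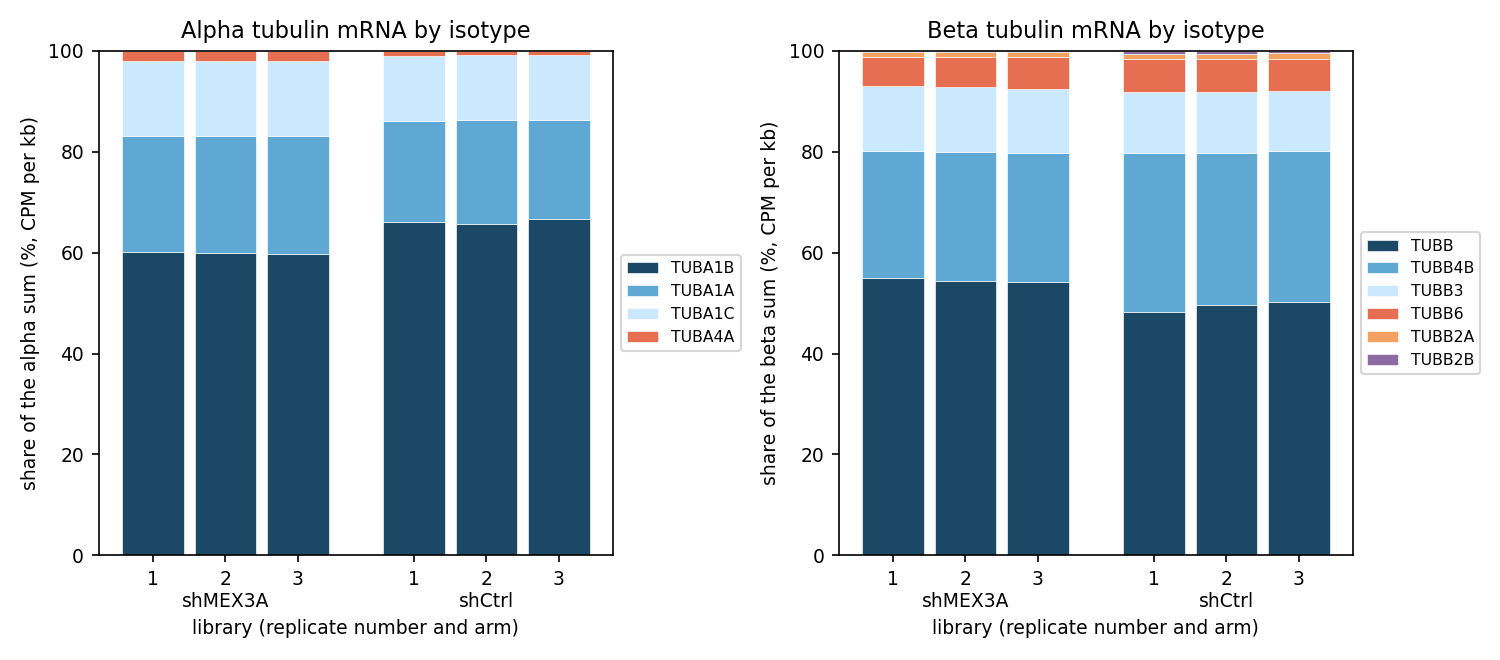
Share of each isotype in the alpha sum (left) and the beta sum (right), in percent of CPM per kb, for each library, with shMEX3A left of shCtrl. TUBA1B takes 59.7% to 60.2% of the alpha sum in shMEX3A and 65.7% to 66.6% in shCtrl, and TUBB takes 54.2% to 55.0% of the beta sum in shMEX3A and 48.3% to 50.1% in shCtrl.

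Of all tested genes, those whose pattern over the 6 libraries lay closest to that of TUBA4A were PALLD, which encodes the actin-bundling protein palladin, MT2A, a metallothionein, and INPP1, an inositol phosphatase. Their root-mean-square distances in centred log2 CPM were 0.0417, 0.0447 and 0.0536. PALLD averaged 94.6 CPM in shMEX3A and 44.0 CPM in shCtrl (log2 fold change 1.10), and MT2A 385 CPM in shMEX3A and 179 CPM in shCtrl (1.11). Closest to TUBB2B were the sorting nexin SNX5 (distance 0.0187, log2 fold change -0.87), the nucleoporin NUP50 (0.0193, -0.90) and HMGB3, a chromatin protein (0.0239, -0.89).

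Most other tubulin genes were weakly expressed, with a median (without TMM adjustment) of 0.811 CPM in shMEX3A and 0.521 CPM in shCtrl over the 12 listed. Of these, 7 passed the filter, 2 rose, 1 fell and 4 were not called, with a median log2 fold change of 0.09 against -0.01 over all tested genes. The share called was 42.9% of the 7, against 69.7% of all tested genes. TUBB4A, a class IV isotype of oligodendrocytes and neurons, was lower at 76.2 ± 0.890 CPM in shMEX3A and 95.5 ± 3.57 CPM in shCtrl (log2 fold change -0.33, and -0.50 with GC and length offsets, edgeR adjusted p = 4.10e-10, SD, n = 3 each). It was above TUBA4A, TUBB2A and TUBB2B in CPM but is not in the sums above. TUBAL3 (0.85, edgeR adjusted p = 0.00791) lay near 1 CPM and lost its call without shMEX3A replicate 3 (edgeR adjusted p = 0.0532) or shCtrl replicate 3 (0.0665). Delta tubulin, TUBD1, which centrioles need, was higher (0.25, edgeR adjusted p = 0.0224, and 0.52 with GC and length offsets) but lost the call with DESeq2 (adjusted p = 0.0601) and without shMEX3A replicate 2 (edgeR adjusted p = 0.130) or shCtrl replicate 1 (0.129). Gamma tubulin TUBG1, named outside the rule after its value was seen, was at 92.9 ± 4.68 CPM in shMEX3A and 94 ± 5.59 CPM in shCtrl (log2 fold change -0.02, edgeR adjusted p = 0.732).

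Genes of tubulin folding and dimer assembly fell more often than they rose. Of 23 tested, 16 fell, 3 rose and 4 were not called, with a median log2 fold change of -0.21. Over all tested genes, 35.6% were lower and 34.0% higher, with a median of -0.01. The largest fall was that of PDCL3, a phosducin-like protein that works with the CCT chaperonin, at 27.2 ± 1.09 CPM in shMEX3A and 117 ± 4.99 CPM in shCtrl (log2 fold change -2.10, edgeR adjusted p = 1.30e-32, SD, n = 3 each). TBCD, a cofactor that holds beta tubulin during pairing, was at 145 ± 2.51 CPM in shMEX3A and 223 ± 2.07 CPM in shCtrl (-0.62). ARL2, the small GTPase that works with TBCD, was higher (0.52), as was the prefoldin subunit PFDN2 (0.37). In groups formed after the values were seen, 7 of 8 CCT subunits fell and 1, TCP1, was not called (0.04), 4 of 6 prefoldin subunits fell, and 3 of 5 tubulin cofactors fell.

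In tubulin mRNA autoregulation the sensor reads the residues encoded by the coding starts printed above. Its listed genes gave 3 falls, 1 rise and 2 genes not called of 6. The share called, 66.7%, was close to the 69.7% of all tested genes. TTC5, the sensor that binds the nascent chain, was slightly lower at 26.4 ± 1.34 CPM in shMEX3A and 29.5 ± 1.51 CPM in shCtrl (log2 fold change -0.16, edgeR adjusted p = 0.00751, SD, n = 3 each). It is named outside the rule after its value was seen. Of the CCR4-NOT deadenylase subunits in the list, CNOT11 was higher (0.64) and CNOT10 (-0.42) and the scaffold CNOT1 (-0.26) were lower.

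Of 22 genes that modify tubulin, 9 rose, 7 fell and 6 were not called, with a median of -0.05. The share called, 72.7%, was close to the 69.7% of all tested genes. KIAA0895L, the symbol under which the counts hold MATCAP1, encodes a peptidase that removes the final tyrosine of alpha tubulin. It was higher at 19.4 ± 2.40 CPM in shMEX3A and 10.2 ± 0.464 CPM in shCtrl (log2 fold change 0.93, edgeR adjusted p = 3.62e-12, SD, n = 3 each). The tubulin carboxypeptidase VASH2 was lower at 7.06 ± 0.0829 CPM in shMEX3A and 13.4 ± 0.407 CPM in shCtrl (-0.92). TTLL12, an atypical member of the tyrosine ligase-like family, was higher (0.36, and 0.12 with GC and length offsets), and TPGS2, a subunit of the polyglutamylase complex, was lower (-0.53). The tyrosine ligase TTL, named outside the rule after its value was seen, did not pass the test (125 ± 3.14 CPM in shMEX3A, 129 ± 3.10 CPM in shCtrl, log2 fold change -0.04, edgeR adjusted p = 0.245).

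Genes of the gamma tubulin ring and of nucleation fell in 17 of 21 cases, with 2 rises and a median of -0.39. Beside this, 35.6% of all tested genes were lower and 34.0% higher, with a median of -0.01. TPX2, a spindle assembly factor that promotes nucleation, was at 149 ± 3.62 CPM in shMEX3A and 243 ± 6.003 CPM in shCtrl (log2 fold change -0.71, edgeR adjusted p = 1.60e-21, SD, n = 3 each). The augmin subunit HAUS6, of the complex that branches microtubules, was lower (-0.64), and in this group, formed after the values were seen, all 8 augmin subunits fell. TUBGCP6, a ring subunit, was higher (0.62, and 0.35 with GC and length offsets). TUBGCP2 was higher too (0.16) but lower with GC and length offsets (-0.08, edgeR adjusted p = 0.00555).

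**Figure D4:**
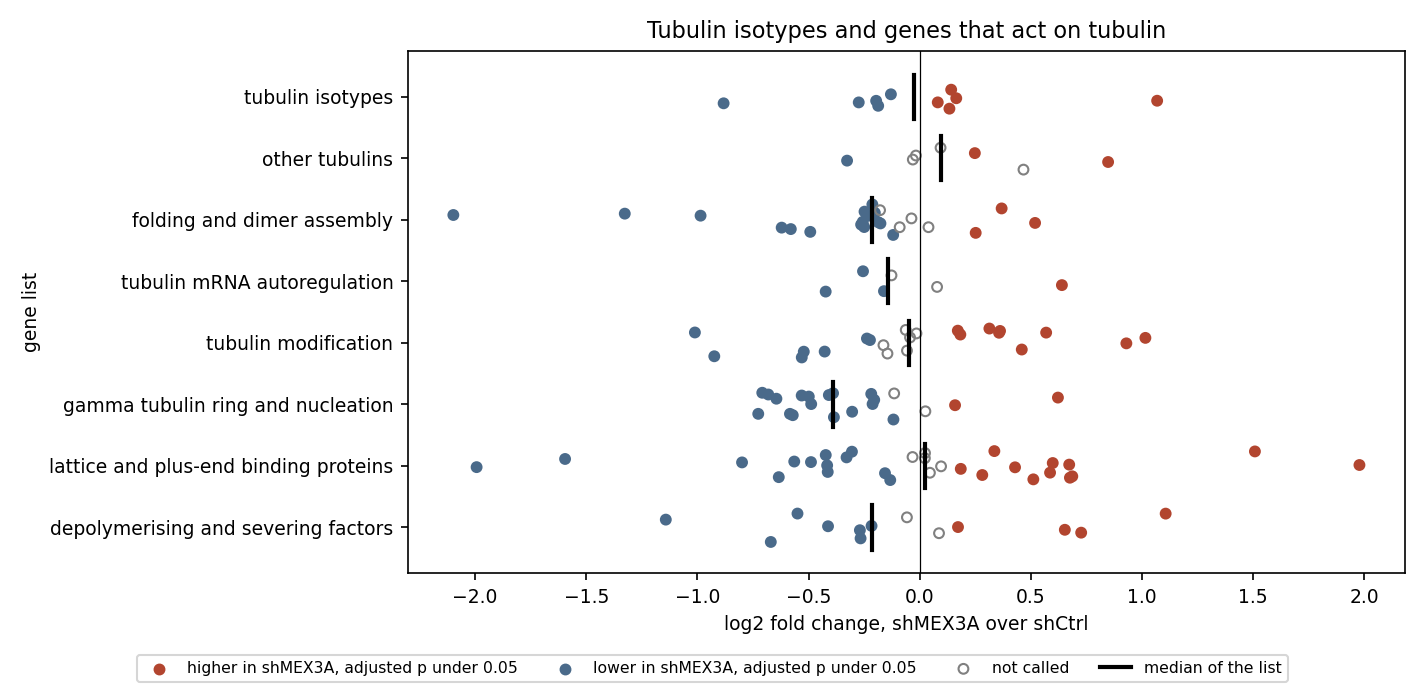
Log2 fold change, shMEX3A over shCtrl, of each tested gene in the tubulin isotype list and in 7 lists of genes that act on tubulin, with filled points for genes called and bars for the list median. The medians are -0.39 for nucleation, -0.21 for folding and 0.02 for lattice and plus-end proteins, and the isotypes lie close to 0 apart from TUBA4A and TUBB2B.

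Proteins that bind the microtubule lattice or its plus ends moved both ways, with 12 rises and 13 falls of 30 and a median of 0.02. The share called was 83.3%, against 69.7% of all tested genes. MAP4, the main lattice-stabilising protein of cells other than neurons, was at 661 ± 8.26 CPM in shMEX3A and 411 ± 11.0 CPM in shCtrl (log2 fold change 0.69, edgeR adjusted p = 5.48e-22, SD, n = 3 each). MAP7D1, a kinesin-recruiting relative of MAP7, was also higher (0.68, and 0.44 with GC and length offsets). The spindle midzone bundler PRC1 (-0.56) and the mitotic protein CKAP2 (-0.63) were lower. Of 13 tested genes that depolymerise or sever microtubules, 4 rose and 7 fell, with a median of -0.22. Here 84.6% were called, against 69.7% of all tested genes (35.6% lower and 34.0% higher). STMN3, a stathmin that binds free dimers (0.73), and the katanin-like KATNAL1 (1.11) were higher, and the severing enzyme spastin, SPAST (-1.14), and the mitotic kinesin KIF2C (-0.67) were lower.

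Several isotypes are used as markers of neurons, so other neuron markers were read beside them. Of 14 listed, NEFM, ELAVL4 and SYT1 were at 0 in every library, and 6 had under 10 counts in all. Only 6 of the 14 passed the filter on low counts. The 14 summed to 91.6 to 97.2 CPM in shMEX3A and 72.4 to 75.04 CPM in shCtrl, most of it from INA, which had 66.9 ± 1.88 CPM in shMEX3A and 43.8 ± 1.26 CPM in shCtrl (log2 fold change 0.61). SNAP25 was higher (0.61), and DCX (-2.51) and RBFOX3 (-0.28) were lower. Fibroblast markers summed to 1264 to 1302 CPM in shMEX3A and 615 to 629.8 CPM in shCtrl. Of the 12, 0 were at 0 in every library and 2 had under 10 counts in all, but only 6 passed the filter. COL3A1, LUM, PDGFRA and PDGFRB were among those that did not. The fibroblast sum came mainly from COL1A2, at 1140 ± 12.8 CPM in shMEX3A and 569.8 ± 7.11 CPM in shCtrl, while COL1A1 was higher (3.16) and FBLN1 lower (-1.05). Of the clear cell carcinoma markers, TFPI2 (3.13) and ARID3A (1.72) were higher and ANXA4 (-1.61) was lower. The part these markers had in the isotype values was not tested.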

How the data were processed

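The authors deposited a table of raw counts (whole numbers) for 6 libraries. The build GRCh38 and the tools HTSeq 2.0.4, edgeR 4.0.16, STAR and fastp 0.20.0 are named, per the submitters' processing notes, without role or order. For the STAR version, annotation release, read length and strand setting, the answer is not given in the sources used here. The 3 shMEX3A and 3 shCtrl libraries were grouped by their titles. No library pair was a duplicate (chi-square per degree of freedom 2.69 to 6.15 within an arm, 138 to 184 between arms).

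Counts were tested in R 4.3.3 with the quasi-likelihood test of edgeR 4.0.16 (filterByExpr, TMM, robust fit, 4 residual degrees of freedom, biological coefficient of variation 3.41%), over 15679 genes with Benjamini-Hochberg adjustment and a threshold of 0.05. Levels are CPM with the SD over 3 libraries, and per kb of the GENCODE 29 representative transcript where genes are compared. Sums and shares were tested by exact two-sided permutation. The members and gene lists were chosen with earlier results of these data known. The genes named are the 10 members, MEX3A, the 2 called genes with the smallest p in each direction of each list, and the 3 nearest patterns to the member with the largest rise and the largest fall. A gene and some sequences under these rules are not reported here. Symbols matched RefSeq for 41709 of 42656 genes.

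Alternatives were DESeq2 1.42.0 size factors and Wald test, upper-quartile factors, no filter, a filter of 1 CPM in 3 libraries, limma 3.58.1 voom, a replicate block, GC and length offsets (natural splines, 5 degrees of freedom, 13828 genes), counts not divided by length, and each library left out. On simulated data for this comparison (15484 genes), recovery was 32 of 67 genes at 1.25-fold, 49 of 67 at 1.5-fold and 55 of 66 at 2-fold, and 11 of 147 calls were false. Over 10 CPM it recovered 31 of 36, 39 of 39 and 43 of 43. The share of genes changed there was far smaller than that called in the real data.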

Additional observations from a re-analysis of the deposited data

How the results depend on the processing

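Of the log2 fold changes of the 10 members under the alternatives, 137 kept direction and call, 2 lost the call and 1 reversed, all 3 for TUBB3. Of those of other named genes, 510 kept both, 5 lost the call (TUBD1 and TUBAL3) and 1 reversed. Those of MEX3A kept both in all 14. With GC and length offsets TUBB3 stood at -0.0279 and TUBGCP2 at -0.0806. The cause was not tested. The log2 ratio of the alpha sums was -0.05, against -0.0218 without division by length, -0.0322 with the length of all annotated exons and -0.0832 with windows found in no other gene. The last 2 lengths were chosen after seeing the data. That of the beta sums was -0.01 and reversed to 0.0229 without division by length. The difference in the log2 ratio of alpha to beta was -0.04, against -0.0194 and -0.0680 with the same 2 added lengths. All 10 shares kept their direction under the lengths tried and with each library left out. With 1 library left out in turn, the alpha value ran from -0.07 to -0.04, the beta value from -0.0167 to -0.0026 and the ratio from -0.0517 to -0.0327, and 4 to 5 members were higher and 5 lower. With the replicate number as a block, 5 members were higher and 5 lower, and 5247 and 5504 of all genes. The numbers did not pair the libraries, since the same-number correlations were -0.03, 0.08 and -0.08 with 2 of 6 libraries closest to a library of the same number. TMM takes most genes as unchanged, so a shift of all mRNA at once would go unseen, and 3 libraries per arm leave sums and shares with no p under 0.10.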
